A study of Mus musculus with 10 samples.

Results

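The genes described here are 10 members of the NRF2 antioxidant response and of glutathione metabolism: Nfe2l2, Keap1, Nqo1, Hmox1, Gclc, Gclm, Txnrd1, Srxn1, Slc7a11 and Gsta4. They were chosen by name, make up 10 of the 26888 genes in the table, and all 10 were among the 16933 genes that passed the filter on low values. RNA was measured in OP9 cells, a stromal line of strain (C57BL/6xC3H)F2-op/op that is used to support blood stem cell precursors, from calvaria that the labels call foetal and the article newborn. The op/op mutation leaves the cells without functional macrophage colony-stimulating factor, and as an established line the cells do not stand for primary stroma. There were 6 reaggregates, in which dispersed cells were pelleted and kept for 48 h on filters at the boundary of liquid and gas, and 4 flat cultures covered by medium. Reaggregates 2, 4 and 6 also received IL-3, and reaggregates 1, 3 and 5 did not. The labels write the dose as 200 μg/μl, which looks too high and is given here as written. The labels credit flat cultures 2 and 4 to the de Bruijn laboratory and name no source for flat cultures 1 and 3 or for the reaggregates. The article states that cells for flat culture had been kept by the Medvinsky or the de Bruijn group, without assigning libraries. It pooled the sources, reporting that variance by cell source was equivalent to that by passage number.

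NRF2, the product of Nfe2l2, is a transcription factor that binds antioxidant response elements together with a small MAF protein. KEAP1 holds it for degradation until oxidants or electrophiles modify KEAP1, and BACH1 competes for the same elements. Its targets import cystine, build glutathione, reduce quinones and thioredoxin, break down haem and conjugate reactive aldehydes.

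Expression is given in RPM, the reads of a gene scaled to all reads that a library had on genes. From the steps between low values, 1 read came to 0.106 to 0.136 RPM, so that 3 reads, used as the lower limit of a library, amounted to 0.318 to 0.408 RPM. This limit covers counting error only. All 10 members lay well above it in every library. Stromal markers moved with the comparison: 5 of 8 were called higher in reaggregates and 1 lower (2 and 0 with consecutive reaggregates averaged), and they summed to 14790 to 22120 RPM there and to 5939 to 12310 RPM in flat cultures. The most abundant, the collagen gene Col1a2, was at 7610 to 11300 RPM and at 1190 to 6340 RPM, without overlap. Of 5 adipocyte markers tested, 2 were called lower in reaggregates and 0 higher, with a median log2 difference of -1.37. None was called with consecutive reaggregates averaged, nor of the 3 tested against the flat cultures with no source label alone. Against those labelled de Bruijn, 4 of 5 were called lower. The 6 blood and macrophage markers in the table summed to 11.07 to 50.89 RPM, with Lyz2 at 6.92 to 48.5 RPM, Cd68 at 1.61 to 8.23 RPM, and the defining Ptprc and Emr1 listed at 0 throughout. Endothelial markers summed to at most 1.09 RPM, with Pecam1 most abundant and Cdh5 at most 0.00702 RPM, and epithelial markers to at most 0.479 RPM, with Cdh1 at most 0.359 RPM and Epcam and Krt18 listed at 0 throughout. The part of these markers in the differences of the members was not tested. In bulk RNA, fewer cells of a type and less RNA per cell cannot be told apart.

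The libraries fell into close sets. Reaggregates 1 and 2, 3 and 4, and 5 and 6 deviated together from the mean of their IL-3 group, with correlations across genes of 0.614, 0.813 and 0.838, although each such pair joins a culture with IL-3 to a culture without it. For every member except Slc7a11 and Txnrd1, the largest difference inside a pair was at most 0.15 on the log2 scale, against 0.26 to 1.31 between the means of the pairs. The labels do not say whether the libraries came from separate cultures, so p-values measure only the spread between these samples, which may be technical, and results are also given with each pair averaged to 1 sample. Reaggregation, the gas boundary, enzymatic dispersal and the source of the cells cannot be told apart in the comparison with flat cultures.

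Between reaggregates and flat cultures, 3 of the 10 members fell and 0 rose. Nqo1, Gclm and Slc7a11 were lower in every reaggregate than in every flat culture. Called here means a change of at least 2-fold with an adjusted p of at most 0.05 by limma, on log2(RPM + 0.5), where the added 0.5 shrinks differences at low values. Of all genes tested, 6.53% were called lower and 7.32% higher, and 11.4% were lower and 7.8% higher without any overlap between the groups. The median log2 difference was -0.37 over the 10 members and 0.04 over all genes. With consecutive reaggregates averaged, 1 member, Gclm, passed the same test, against 2.53% of all genes called lower and 1.84% higher.

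**Figure D1:**
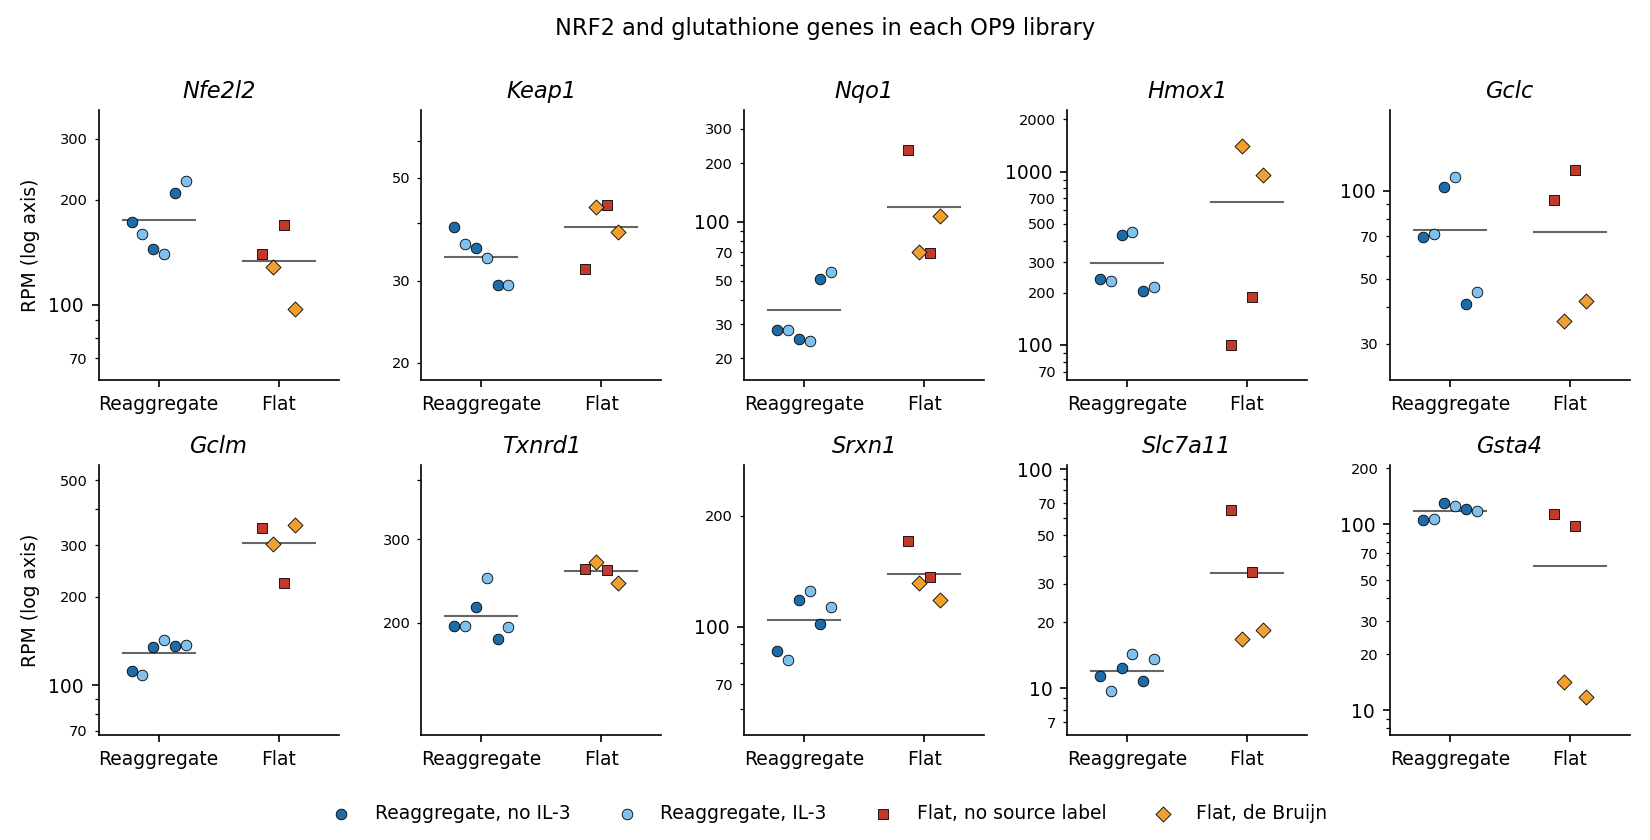
RPM of each of the 10 members in 6 reaggregates and 4 flat cultures, on a logarithmic axis with its own range in each panel; points are libraries, coloured by IL-3 or by the labelled source, and the grey lines are group means. Nqo1, Gclm and Slc7a11 do not overlap between the groups, and Hmox1, Gclc and Gsta4 were called between the sources of flat culture.

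The glutamate-cysteine ligase that starts glutathione synthesis has a catalytic subunit, Gclc, and a modifier subunit, Gclm, and its cystine is brought in by the exchanger Slc7a11. Gclm was measured at 344, 304, 223 and 352 RPM in flat cultures 1 to 4. In the reaggregates it lay between 108 and 143 RPM, with a median of 135.5 RPM. Every reaggregate was thus below the lowest flat culture, and the flat cultures did not divide by source. Reaggregates averaged 128.5 ± 14.7 RPM (SD, n = 6), and flat cultures 2.38-fold more at 306 ± 59.0 RPM (SD, n = 4), with a log2 difference of -1.23 ± 0.158 (SE; limma adjusted p = 0.000412). It was -1.35 against the flat cultures labelled de Bruijn and -1.11 against the others, and with consecutive reaggregates averaged the limma adjusted p was 0.0240.

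Slc7a11 was measured at 65.2, 16.8, 34.1 and 18.4 RPM in flat cultures 1 to 4. The reaggregates held between 9.78 and 14.3 RPM, with a median of 11.9 RPM. All reaggregates were lower, but flat cultures 2 and 4 came close to them, whereas flat cultures 1 and 3 were higher. The log2 difference was -1.24 ± 0.330 (SE; limma adjusted p = 0.0174). The size of the drop depended on the reference, because it was -1.94 against the flat cultures with no source label and -0.54 against those labelled de Bruijn, which is under 2-fold. Without flat culture 1 it was -0.85, also under 2-fold, and with consecutive reaggregates averaged the limma adjusted p was 0.131.

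Gclc was measured at 93.1, 35.9, 118 and 42.0 RPM in flat cultures 1 to 4. The reaggregates held between 41.1 and 112 RPM, with a median of 70.3 RPM. The groups overlapped fully, and both contained high and low libraries: flat cultures 1 and 3 and reaggregates 3 and 4 were high, flat cultures 2 and 4 and reaggregates 5 and 6 were low. The log2 difference between the conditions was 0.11 ± 0.385 (SE; limma adjusted p = 0.849), and its sign changed with the flat cultures used.

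The balance of the ligase subunits was read from the ratio of Gclm to Gclc RPM inside each library, which is not corrected for gene length and so is compared only between libraries. The ratio was 3.70, 8.47, 1.89 and 8.38 in flat cultures 1 to 4. It was 1.61 and 1.52 in reaggregates 1 and 2, 1.31 and 1.28 in reaggregates 3 and 4, and 3.31 and 3.05 in reaggregates 5 and 6. Flat culture 3 and the last of these pairs overlapped, and the highest ratios were those of the flat cultures labelled de Bruijn. The mean log2 ratio was lower by -1.34 in reaggregates (two-sided exact permutation p = 0.0333, Benjamini-Hochberg adjusted p = 0.0571 over 2 ratios), which does not pass after adjustment. The smallest p that the 210 splits allow is 0.00476, and with consecutive reaggregates averaged the exact p was 0.114.

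Of the 11 genes listed for cystine uptake and glutathione synthesis, 5 were called lower and 0 higher, with a median log2 difference of -0.72. Besides Gclm and Slc7a11 these were Chac1 and Chac2, which cleave glutathione, and Ggct, which acts on gamma-glutamyl peptides. Chac1 stood at 22.5 to 34.5 RPM in flat cultures and at 2.82 to 5.58 RPM in reaggregates, a log2 difference of -2.65 ± 0.239 (SE; limma adjusted p = 7.16e-05). The groups were far apart, and the call was kept with consecutive reaggregates averaged (limma adjusted p = 0.00870). Those of Chac2 and Ggct, at log2 differences of -1.18 and -1.39, were not kept (limma adjusted p = 0.0838 and 0.0634). Ggct was low, at 1.8 to 4.62 RPM in flat cultures and 0.385 to 1.41 RPM in reaggregates. Its lowest reaggregate was at the 3-read limit, so the size of its change is uncertain.

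Nqo1 encodes a quinone reductase and is a widely used readout of NRF2. It was measured at 233, 69.8, 69.2 and 107 RPM in flat cultures 1 to 4. The reaggregates held 24.7 to 55.6 RPM, with a median of 27.95 RPM. Reaggregates 5 and 6, at 51.2 and 55.6 RPM, approached flat cultures 2 and 3 without reaching them, and flat culture 1 was the highest library. Reaggregates averaged 35.4 ± 14.1 RPM (SD, n = 6), and flat cultures 3.38-fold more at 120 ± 77.5 RPM (SD, n = 4), with a log2 difference of -1.64 ± 0.364 (SE; limma adjusted p = 0.00767). It was called against either source of flat culture, at -1.36 and -1.91, but not with consecutive reaggregates averaged (limma adjusted p = 0.0736).

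Hmox1, the inducible haem oxygenase, is repressed by BACH1 as well as driven by NRF2. It was measured at 100 and 190 RPM in flat cultures 1 and 3 and at 1410 and 961 RPM in flat cultures 2 and 4. The reaggregates held 204 to 451 RPM, with a median of 237.5 RPM and reaggregates 3 and 4 highest. Every reaggregate was therefore above both flat cultures with no source label and below both labelled de Bruijn. Pooled over the sources, the log2 difference of -0.52 ± 0.646 (SE; limma adjusted p = 0.557) described neither. It was -2.05 ± 0.334 (SE; limma adjusted p = 0.000879) against the flat cultures labelled de Bruijn, and 1.02 ± 0.364 (SE; limma adjusted p = 0.0790) against the others.

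Among the 12 genes listed for quinones, haem and iron, 4 were called lower and 2 higher, with a median log2 difference of -0.53. The quinone reductase Nqo2 fell 2.51-fold, from a mean of 53.1 RPM to 21.1 RPM, and lay lower in all 6 reaggregates than in any flat culture (limma adjusted p = 0.00129; 0.0339 with consecutive reaggregates averaged). Blvra, which reduces the biliverdin that haem oxygenase makes, fell 2.73-fold (limma adjusted p = 0.00268; 0.0504 averaged). The ferritin light chain Ftl1 was at 1590 and 1600 RPM in flat cultures 1 and 3, 3910 and 3400 RPM in flat cultures 2 and 4, and 968 to 1360 RPM in reaggregates. All reaggregates were lower, yet its call ended against the flat cultures with no source label (log2 difference -0.49, limma adjusted p = 0.115) and with consecutive reaggregates averaged (0.136). Reads of ferritin genes may be split with near-identical copies, so the values are uncertain. The metal-binding Mt1 rose 3.24-fold, from 112 to 364 RPM (limma adjusted p = 0.000736; 0.0233 averaged), and the rise of Mt2 was lost in most alternatives (limma adjusted p = 0.0379; 0.163 averaged). Fth1, the ferritin heavy chain and most abundant gene of the list, was not called (log2 difference -0.54, limma adjusted p = 0.0887).

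Nfe2l2 itself was measured at 140, 128, 169 and 96.9 RPM in flat cultures 1 to 4. The reaggregates held 140 to 226 RPM, with a median of 166 RPM. The groups overlapped, with reaggregates 5 and 6 highest and flat culture 4 lowest. The log2 difference was 0.40 ± 0.190 (SE; limma adjusted p = 0.131).

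Keap1 was measured at 31.8, 43.3, 43.6 and 38.2 RPM in flat cultures 1 to 4. The reaggregates held 29.3 to 39.2 RPM, with a median of 34.35 RPM. The groups overlapped, since flat culture 1 lay among the reaggregates and reaggregate 1 above flat culture 4. The log2 difference was -0.21 ± 0.147 (SE; limma adjusted p = 0.285). The ratio of Keap1 to Nfe2l2 RPM inside a library was 0.1301 to 0.2444 in reaggregates and 0.227 to 0.394 in flat cultures, overlapping through flat culture 1 and reaggregates 3 and 4, and its mean log2 value was lower by -0.61 in reaggregates (two-sided exact permutation p = 0.0571, the same after adjustment over 2 ratios).

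Of the 14 listed regulators of NRF2, 13 were tested, 3 were called higher and 0 lower, with a median log2 difference of 0.40. Bach1, which represses NRF2 targets, was at 44.2, 23.3, 61.8 and 21.4 RPM in flat cultures 1 to 4 and at 131 to 169 RPM in reaggregates. Every reaggregate exceeded every flat culture by a wide margin, with a log2 difference of 2.15 ± 0.265 (SE; limma adjusted p = 0.000328; 0.0198 with consecutive reaggregates averaged). Its relative Bach2 rose from at most 0.926 RPM to between 1.46 and 3.55 RPM (limma adjusted p = 0.00358; 0.0495 averaged, and 0.0571 and 0.0562 with only the reaggregates without or with IL-3), where 1 flat library was listed at 0 and another lay under the 3-read limit. The small MAF partner Mafg rose 2.66-fold with overlapping groups, since flat culture 3 was at 84.5 RPM and reaggregates 5 and 6 at 64.1 and 62.6 RPM (limma adjusted p = 0.0192; 0.0958 averaged, and 0.132 against the flat cultures with no source label). Sqstm1, whose product p62 binds KEAP1, was at 930 to 1150 RPM in reaggregates and 512 to 875 RPM in flat cultures, without overlap but under 2-fold (log2 difference 0.78, limma adjusted p = 0.00882; 0.111 averaged). Against the flat cultures with no source label alone it was called, at a log2 difference of 1.0046 (limma adjusted p = 0.00203).

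Txnrd1 encodes cytosolic thioredoxin reductase. It was measured at 260, 269, 259 and 243 RPM in flat cultures 1 to 4 and between 185 and 249 RPM in reaggregates, with a median of 197 RPM. Only reaggregate 4 reached into the flat range. The log2 difference was -0.32 ± 0.122 (SE; limma adjusted p = 0.0647), and the SE makes Txnrd1 the member with the smallest uncertainty.

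Srxn1 encodes sulfiredoxin, which repairs overoxidised peroxiredoxins. It was measured at 171, 131, 136 and 118 RPM in flat cultures 1 to 4 and between 81.4 and 125 RPM in reaggregates, with a median of 107.5 RPM. The groups overlapped through flat culture 4 and reaggregates 3 and 4. The log2 difference was -0.42 ± 0.163 (SE; limma adjusted p = 0.0718).

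Of the 16 genes listed for thioredoxin and peroxiredoxin, 3 were called higher and 1 lower, with a median log2 difference of -0.45. Txnip, which binds and inhibits thioredoxin, was at 113 to 163 RPM in flat cultures and 376 to 491 RPM in reaggregates. No libraries overlapped, and the log2 difference was 1.72 ± 0.144 (SE; limma adjusted p = 5.79e-05; 0.00907 with consecutive reaggregates averaged). The sestrins Sesn1 and Sesn3 rose 2.70-fold and 2.91-fold (limma adjusted p = 0.00562 and 0.00238; 0.0725 and 0.0521 averaged), and the call of Sesn1 ended against the flat cultures with no source label, at a log2 difference of 0.85. Prdx5, a mitochondrial and peroxisomal peroxiredoxin, fell 2.79-fold (limma adjusted p = 0.00151; 0.0406 averaged). Prdx1, the most abundant of the list, was not called (log2 difference -0.48, limma adjusted p = 0.184).

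Gsta4 encodes a glutathione S-transferase that conjugates 4-hydroxynonenal, a product of lipid peroxidation. It was measured at 114 and 97.5 RPM in flat cultures 1 and 3 and at 14.1 and 11.7 RPM in flat cultures 2 and 4. The reaggregates held 106 to 130 RPM, with a median of 119.5 RPM. They resembled flat cultures 1 and 3, and the low libraries were those labelled de Bruijn. Over all libraries the log2 difference was 1.65 ± 0.579 (SE; limma adjusted p = 0.0506), and a stricter filter and other scalings made it a call. With consecutive reaggregates averaged, the limma adjusted p was 0.217. The log2 difference was 3.15 ± 0.133 (SE; limma adjusted p = 2.97e-07) against the flat cultures labelled de Bruijn and 0.16 ± 0.138 (SE; limma adjusted p = 0.448) against the others.

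**Figure D2:**
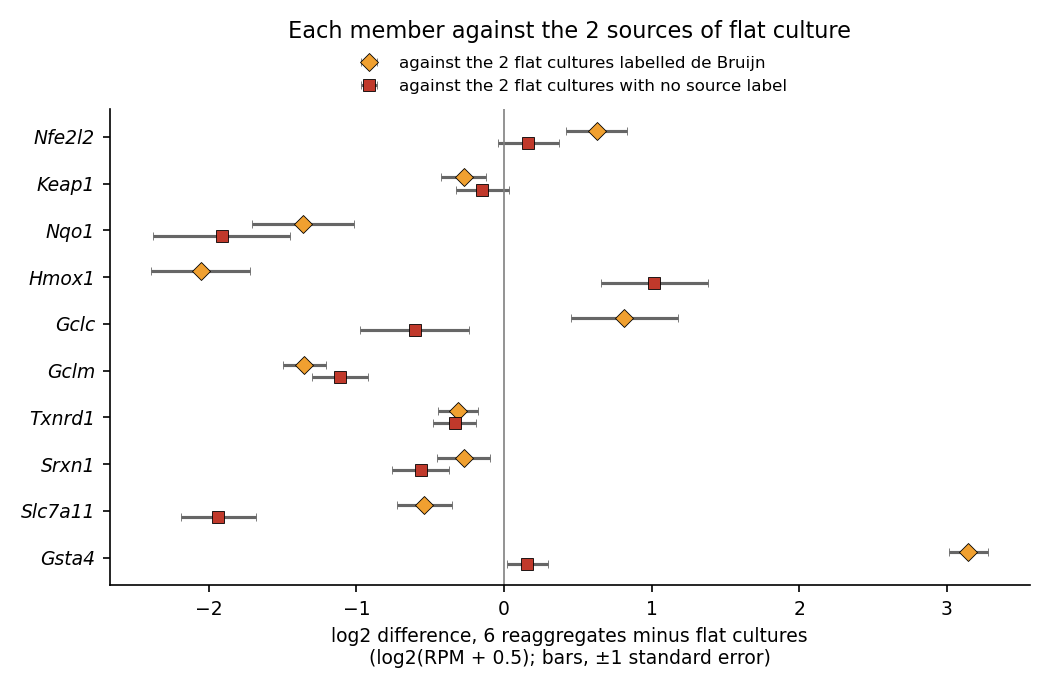
Log2 difference between 6 reaggregates and each pair of flat cultures for the 10 members, on log2(RPM + 0.5); points are limma estimates and bars are 1 SE. Gclm and Nqo1 lie on the same side at a similar distance for either source, Hmox1 and Gclc change side, and the value of Gsta4 is 3.15 against 1 source and 0.16 against the other.

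The flat cultures were therefore compared by source, 2 libraries against 2, where the laboratory and any other difference between the libraries cannot be told apart. Of the 10 members, 1 was called higher and 2 lower in the flat cultures labelled de Bruijn, against 2.89% and 6.96% of the 16115 genes tested. Quantile and median-ratio scaling kept the 3 calls and raised the share of all genes called higher to 4.57% and 4.55%. With no filter 0.395% of all genes were called higher and 0.666% lower, and of the 3 only Gsta4 stayed called (limma adjusted p = 0.122 for Hmox1 and 0.105 for Gclc). Without overlap between the sources, 1 member was higher (Hmox1) and 5 were lower (Gclc, Gsta4, Slc7a11, Nfe2l2 and Srxn1) in them, against 18.8% and 34.6% of the same genes. Hmox1 was 8.18-fold higher in them, with a log2 difference of 3.07 ± 0.428 (SE; limma adjusted p = 0.00217). Gsta4 was 8.20-fold lower (log2 difference -2.99 ± 0.327, SE; limma adjusted p = 0.000566), and Gclc was 2.71-fold lower (-1.42 ± 0.324, SE; limma adjusted p = 0.0242). Slc7a11 was 2.82-fold lower without passing (limma adjusted p = 0.0542). Without flat culture 1 or flat culture 3, where 0 of all genes were called, the log2 differences stayed at 2.61 and 3.53 for Hmox1, -2.88 and -3.10 for Gsta4 and -1.59 and -1.25 for Gclc. Only the call of Gclc was also lost when flat culture 2 or 4 was left out, and each of these fits has 1 library on a side and assumes that it varies like the others.

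Adipocyte genes moved with the same split, as did single genes of other marker lists: Lyz2 was called lower in the flat cultures labelled de Bruijn, at 6.92 to 8.68 RPM against 28 to 48.5 RPM, and the stromal Cxcl12 higher, at 3990 to 4560 RPM against 125 to 662 RPM. The heat shock genes Hspa1a and Hspa1b, of the dissociation list, were called lower in them and may share reads. In flat cultures 1 to 4, Pparg was at 49.4, 395, 58.1 and 295 RPM and Fabp4 at 31.3, 435, 47.2 and 711 RPM, and the 6 adipocyte markers in the table summed to 80.7, 835, 105.5 and 1010 RPM, against 61.1 to 92.2 RPM in reaggregates. Fabp4 was the most abundant in flat cultures 2 and 4 and Pparg exceeded it in all other libraries. Adipoq did not exceed 0.768 RPM and Cfd 0.136 RPM, and neither was tested between the sources. The 4 markers tested were called higher in the flat cultures labelled de Bruijn. Among them, Cidec and Plin1 were listed at 0 in flat cultures 1 and 3. These passed the filter only through flat cultures 2 and 4, which helped to fix their calls. Fabp4 and Pparg passed it in both sources. The part of all these genes in the differences of Hmox1, Gsta4 and Gclc was not tested.

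Glutathione S-transferases divided along the same line, in both directions. Of 23 listed, Gsta4 among them, 8 were called lower and 4 higher in the flat cultures labelled de Bruijn, against 6.96% and 2.89% of all genes. The median log2 difference was -0.50, against -0.18 over all genes. Gsta1, Gsta2, Gsta3 and Gstm6 passed the filter only through flat cultures 1 and 3, and Gstm4 only through flat cultures 2 and 4. The filter thus helped to fix these calls. With no filter, the calls that ended included Gstk1, Gsto1, Gsto2 and Mgst2 (limma adjusted p = 0.0660, 0.160, 0.0840 and 0.0882). The genes named next were chosen after their values were seen. Gstt1 was at 150 and 144 RPM in flat cultures 1 and 3 and at 5.18 and 5.53 RPM in flat cultures 2 and 4, with 78.9 to 96.6 RPM in reaggregates. Mgst2 showed the opposite order, at 6.79 and 7.30 RPM against 41.8 and 72.0 RPM, with 4.88 to 23.4 RPM in reaggregates. Gstm4 was below the 3-read limit in all libraries except flat cultures 2 and 4, where it reached 10.6 and 8.36 RPM. Outside this family, Ggt7, of the gamma-glutamyltransferase family, was at 39.5 and 79.0 RPM in flat cultures 1 and 3 and at 1.97 and 2.21 RPM in flat cultures 2 and 4, and the aldehyde dehydrogenase Aldh3a1 was at 234 and 232 RPM and at 17.8 and 13.0 RPM. Between reaggregates and all flat cultures, 3 of the 23 transferases were called lower and 0 higher, against 6.53% and 7.32% of all genes. One was Gstm4, which passed the filter only through flat cultures 2 and 4, and its call was lost in 15 of 22 alternatives. Of the 22 tested against a single source, 8 were called higher and 6 lower against the flat cultures labelled de Bruijn, where 15.5% and 10.6% of all genes were. Against the others 0 were called higher and 4 lower, where 3.97% and 6.49% of all genes were. Of the 3, Mgst3, at 18.9 to 34.3 RPM against 48.5 to 185 RPM, was kept with consecutive reaggregates averaged (limma adjusted p = 0.0325), and Gsto1 and Gstm4 were not (0.0934 and 0.204). Mgst1, the most abundant of the list, was at 140 to 219 RPM against 173 to 430 RPM, an overlapping difference under 2-fold (log2 difference -0.73, limma adjusted p = 0.0441).

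Gclc and Gsta4, the members called lower in the flat cultures labelled de Bruijn, lie 397 kb apart on chromosome 9. Of the 5 other tested genes between them, 0 were called in the comparison of sources. Elovl5, the nearest to Gclc, was at 114, 74.6, 110 and 48.3 RPM in flat cultures 1 to 4. Beyond Gsta4, Gsta1 and Gsta2 were at 1.34 and 1.6 RPM in flat culture 1, at 0.916 and 2.31 RPM in flat culture 3, and listed at 0 in flat cultures 2 and 4. Reads of these 2 genes may be split with near-identical copies, so their values are uncertain. Gsta1 and Gsta2 were the 2 called among 17 other tested genes from 1 Mb before Gclc to 1 Mb after Gsta4. Of all genes, 6.96% were called lower in the flat cultures labelled de Bruijn. Both passed the filter in this comparison only through flat cultures 1 and 3, which helped to fix their calls. The stretch was chosen after the values were seen.

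Of 7 genes that supply NADPH, 2 were called lower and 0 higher, with a median log2 difference of -0.52. G6pdx, the entry enzyme of the pentose phosphate pathway, stood at 199 to 324 RPM in flat cultures and 93.1 to 129 RPM in reaggregates (log2 difference -1.20, limma adjusted p = 0.000686; 0.0284 with consecutive reaggregates averaged). Malic enzyme, Me1, stood at 109 to 135 RPM and 35.4 to 59.4 RPM (-1.47, limma adjusted p = 0.000162; 0.0103 averaged). Neither pair of ranges overlapped, and Tkt, the transketolase and most abundant of the list, was under 2-fold (log2 difference -0.52, limma adjusted p = 0.0192). Among 16 other detoxifying genes and exporters tested, 2 were called higher and 1 lower: Ugdh, which makes UDP-glucuronate, fell 2.38-fold (limma adjusted p = 0.000258; 0.0198 averaged), whereas the calls of Abcc5 and Ugt1a6a were lost with averaging (0.107 and 0.203), and Ephx1, the most abundant, was not called (log2 difference -0.24, limma adjusted p = 0.463). None of 12 genes for glutathione use and peroxidases, and none of 4 for superoxide and catalase, was called by limma, although in the first group 4 had an adjusted p of at most 0.05 at less than 2-fold, among them Gpx1, at a log2 difference of -0.90. Sod3, an extracellular superoxide dismutase and the most abundant of its list, had a log2 difference of 0.70 (limma adjusted p = 0.119). It was called against the flat cultures labelled de Bruijn alone (1.15, limma adjusted p = 0.0191), but not against the others (0.24, limma adjusted p = 0.612). Over all 104 tested genes of these lists other than the members, 10 were called higher and 13 lower, with a median log2 difference of -0.24; with consecutive reaggregates averaged 4 and 7 were called, all 11 among the former. The balance turned with the reference as it did over all genes, since of 103 tested, 24 were called higher and 17 lower against the flat cultures labelled de Bruijn, and 6 higher and 15 lower against the others.

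**Figure D3:**
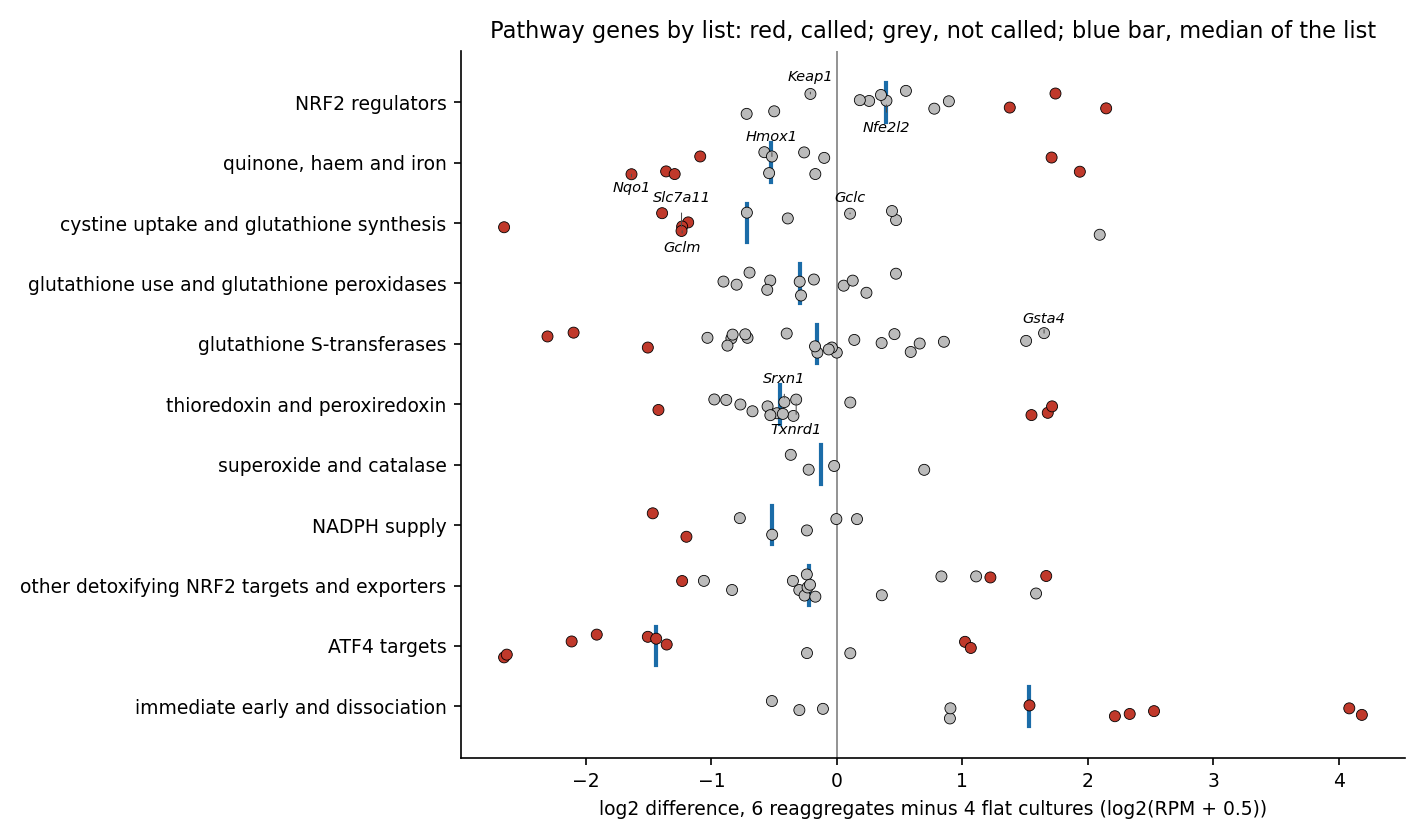
Log2 difference between 6 reaggregates and 4 flat cultures, on log2(RPM + 0.5), for each tested gene of 11 lists; red points were called, grey points were not, blue bars are list medians and the members are named. Calls in both directions occur within the lists for quinones, haem and iron, for thioredoxin, for other detoxifying genes and for ATF4. The lists for glutathione synthesis, transferases and NADPH supply hold 5, 3 and 2 calls, all lower.

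IL-3 was compared within the reaggregates, 3 against 3. By limma, 0 of the 10 members and 0% of the 16292 genes tested were called, and 20 of all genes but 0 members had an unadjusted p of at most 0.05. Without any effect, a share of about 0.05 of the genes would reach that p. This fit left the differences between consecutive pairs of reaggregates in its error, so it could hardly find an effect. The log2 differences of the members ran from -0.06 for Keap1 to 0.10 for Slc7a11. With consecutive reaggregates as a block, 692 of the 16292 genes and 0 members had an unadjusted p of at most 0.05. This too is less than a share of 0.05 of the genes, so it does not set the members apart.

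Levels were compared between members per kb of exon, as RPM per kb. In reaggregates Hmox1 and Gsta4 stood highest, at 137 ± 52.1 and 123 ± 10.3 RPM per kb (SD, n = 6), and did not differ beyond their spread. Txnrd1, Nfe2l2 and Srxn1 followed at 51.4 ± 5.73, 46.1 ± 9.28 and 37.0 ± 6.27 RPM per kb, each within the spread of its neighbour. Gclm, Nqo1 and Gclc, at 25.0 ± 2.85, 22.8 ± 9.07 and 21.5 ± 8.51 RPM per kb, could not be ordered, and Keap1 and Slc7a11 were lowest at 7.55 ± 0.868 and 1.07 ± 0.153 RPM per kb. In flat cultures Hmox1 (308 ± 291), Nqo1 (77.1 ± 49.9), Txnrd1 (64.1 ± 2.69), Gsta4 (62.0 ± 56.5) and Gclm (59.5 ± 11.5 RPM per kb, SD, n = 4) overlapped in their spread, which pools both sources. In the flat cultures labelled de Bruijn Hmox1 stood highest, at 549 ± 147 RPM per kb, and Gsta4 was at 13.5 ± 1.77 RPM per kb (SD, n = 2). In the others Gsta4 was at 110.5 ± 12.2 and Nqo1 at 97.3 ± 74.6 RPM per kb, which could not be ordered, and neither could Hmox1 at 67.1 ± 29.4 and Txnrd1 at 64.6 ± 0.176 RPM per kb (SD, n = 2). Keap1 and Slc7a11 were lowest over all flat cultures, at 8.78 ± 1.24 and 2.99 ± 1.9965 RPM per kb.

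In the mouse assembly of the files, NCBIM37 (mm9), the members map as whole genes to chr2:75513570-75542698 (Nfe2l2, minus strand), chr9:21034174-21043776 (Keap1, minus), chr8:109912125-109927106 (Nqo1, minus), chr8:77617490-77624495 (Hmox1, plus) and chr9:77602342-77642292 (Gclc, plus). The others map to chr3:121948475-121972902 (Gclm, plus), chr10:82296696-82360469 (Txnrd1, plus), chr2:151931252-151937112 (Srxn1, plus), chr3:50168858-50247535 (Slc7a11, minus) and chr9:78039773-78057155 (Gsta4, plus).

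Promoter windows, from 250 bases before to 50 bases after a gene start, were taken from RefSeq on GRCm38.p6 for 7 members, with 3 windows for Txnrd1. Hmox1, Gclc and Gsta4 had no entry. The core of the antioxidant response element, TGACNNNGC on either strand, occurred in 12.4% of all 32851 windows and in windows of Nfe2l2, Gclm, Txnrd1 and Srxn1. Of the 3 members that fell, Gclm held it and the windows of Nqo1 and Slc7a11 did not, which says only that these letters are not in them. The matches are shown with their surroundings, in capitals, to let the sequence of Gclm be read beside those of members that were not called; each is on the strand of the gene, 5′ to 3′, and in all but Nfe2l2 the core reads on the other strand. They lie at chr2:75704879-75704913 (Nfe2l2, minus), chr3:122245407-122245447 (Gclm, plus), chr10:82859098-82859138 (Txnrd1, plus) and chr2:152105536-152105573 (Srxn1, plus).
Nfe2l2: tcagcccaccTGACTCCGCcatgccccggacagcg
Gclm: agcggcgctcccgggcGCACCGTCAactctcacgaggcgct
Txnrd1: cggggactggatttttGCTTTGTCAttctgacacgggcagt
Srxn1: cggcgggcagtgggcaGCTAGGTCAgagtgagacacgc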

How the data were processed

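Per the study's methods and the submitters' processing notes, the authors aligned reads to NCBIM37 (mm9) with TopHat 1.2.0 and Bowtie in GeneProf, divided reads of several origins among Ensembl genes, and deposited RPM for 10 libraries. The deposited table also holds the authors' own log2 fold changes and adjusted p-values from DESeq; neither was used here. All 10 value columns matched a library by name. Depth came from the most frequent low RPM step, read as 1 read. Only 38.2% to 42.9% of the values up to 1 RPM were whole multiples of it (within 0.05 reads), so no test on counts was run.

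Values were compared with limma 3.58.1 in R 4.3.3 on log2(RPM + 0.5), with moderated variances following a trend, among genes exceeding 0.5 RPM in 1 library or more; p-values were adjusted by Benjamini-Hochberg over all genes tested. The fit was tested on simulated data. Ratios were tested by exact permutation. Genes other than the members are those called in each list (at most 6, by size of change) and its most abundant gene, with the exceptions stated. The members and lists were chosen with earlier results of these data known. Reads of ferritin, Gsta, Gstm, Ugt1a6a, G6pdx, Hspa1a and Hspa1b genes may be split with near-identical copies. Alternatives covered pseudocounts, filters, scaling, the variance trend, left-out libraries, averaging or blocking, subsets by IL-3 and source, and 1 subset added after the data were seen (reaggregates 1 to 4 only). Marker lists covered stroma, adipocytes, endothelium, blood and epithelium. Python 3.11.15 with matplotlib 3.10.9 made the figures.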

Additional observations from a re-analysis of the deposited data

Results flagged for a closer look

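Hmox1 in every reaggregate lay above both flat cultures with no source label and below both labelled de Bruijn, so that it moved in opposite directions against the 2 sources; the sources themselves differed by 3.07 on the log2 scale (limma adjusted p = 0.00217). Gstt1 and Gsta3 showed the reverse order, with every reaggregate below the flat cultures with no source label and above those labelled de Bruijn, at log2 differences between the sources of -4.66 and -4.59; Gsta3 was listed at 0 in flat cultures 2 and 4, so its value depends on the 0.5 RPM added. The opposite directions against the sources were not tested as such.

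Flat culture 3 stood far above the other flat cultures for 4 immediate early genes, with Atf3 at 31.5 RPM, Fos at 436 RPM, Fosb at 284 RPM and Jun at 569 RPM. Sqstm1 stood apart in flat culture 2, at 875 RPM, and Gstt1 in reaggregate 2, at 96.6 RPM. Among the 122 sets of values examined, for 61 genes, chance alone marks about 1 in 20.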

How the results depend on the processing

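The comparison of reaggregates with flat cultures called 1239 genes higher and 1106 lower, and 312 and 429 with consecutive reaggregates averaged, where 1 member stayed called lower. It called 354 higher and 486 lower with only reaggregates without IL-3, and 281 and 368 with only those with IL-3, with 1 member lower each time, and fewer libraries were used in all 3. Against only the flat cultures labelled de Bruijn, 2581 were higher and 1776 lower, with 1 member higher and 3 lower (Nqo1, Hmox1 and Gclm). Against only the others 661 were higher and 1080 lower, with 0 members higher and 3 lower (Nqo1, Slc7a11 and Gclm). Leaving out single libraries gave 772 (without flat culture 4) to 2122 (without flat culture 3) genes higher, 815 to 1522 genes lower, and 0 to 1 members higher. That member, Gsta4, was called higher under the stricter filter, quantile normalization and median-ratio scaling (1 member each) and without flat culture 1 or 3. Gclm was called lower under every alternative. The cause was not tested.

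Signs turned for 6 of the 10 members in a comparison, and for Atf4. Hmox1 was 1.02 against the flat cultures with no source label, and -1.18 to 0.0868 with single libraries left out. Gclc was -0.60 against the same cultures and -0.17 to 0.40 with single libraries left out. Atf4 was 0.23 against the flat cultures labelled de Bruijn. Between the flat sources, leaving out libraries gave Keap1 -0.10 to 0.35, Nqo1 -1.43 to 0.32, Gclm -0.0725 to 0.55 and Txnrd1 -0.0946 to 0.0518, and Txnrd1 was 0.16 under median-ratio scaling.

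Numbers in the labels do not pair reaggregates with flat cultures: deviations of equal numbers correlated at -0.213 to 0.155. A block of label numbers 1 to 4 gave 1891 genes higher, and the same libraries without the block, an alternative chosen after seeing the data, gave 1903. With consecutive reaggregates as a block, 3 genes and 0 members were called lower with IL-3.

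Between the flat sources, no filter left 92 genes higher and 155 lower, with 0 members higher and 1 lower. Leaving out a library gave 0 to 194 genes higher and 0 to 409 lower, with 0 to 1 members higher and 0 to 1 lower. Quantile normalization gave 737 higher and median-ratio scaling 734, so that the share of calls that were higher was 29.4%, 44.9% and 39.4%, and the median log2 difference of all genes -0.18, 0.05 and -0.01 with RPM, quantile and median-ratio scaling. How many genes were higher or lower between the sources therefore depends on the scaling.

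The log2 ratio of Gclm to Gclc differed by -1.34 with consecutive reaggregates averaged (exact p = 0.114), and by -1.78 to -1.06 with single libraries left out (exact p = 0.0119 to 0.0714). The ratio of Keap1 to Nfe2l2 gave -0.74 to -0.47 with single libraries left out (exact p = 0.0317 to 0.107). Over all 12 alternatives its exact p reached 0.114.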

Other observations

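Genes that ATF4 activates include the amino acid enzymes Asns, Psat1 and Shmt2, the factor Atf5, and also Trib3 and Chac1. Chac1 is counted with glutathione synthesis as well. Of 11 listed, 7 were called lower and 2 higher in reaggregates, Ddit3 and Ddit4 being the latter, with a median log2 difference of -1.44. With consecutive reaggregates averaged, and also against the flat cultures with no source label alone, 6 were called lower and 0 higher, so both higher calls were lost. Asns was at 258, 277, 162 and 252 RPM in flat cultures 1 to 4 and between 48.0 and 58.5 RPM in reaggregates (limma adjusted p = 3.15e-05; 0.00870 with consecutive reaggregates averaged). Psat1 was at 547, 232, 218 and 364 RPM and between 44.7 and 66.5 RPM (limma adjusted p = 7.95e-05; 0.00953 averaged). For both genes all reaggregates were lower. Trib3, Atf5 and Shmt2 fell by log2 differences of -1.91, -1.51 and -1.44, and were kept with averaging (limma adjusted p = 0.0329, 0.0313 and 0.0116). Atf4 itself had a log2 difference of -0.24 (limma adjusted p = 0.450). The part of this list in the differences of Slc7a11 and Chac1 was not tested.

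Of 11 immediate early and dissociation genes, 6 were called higher and 0 lower, with a median log2 difference of 1.54. With consecutive reaggregates averaged 1 stayed called, Atf3 (log2 difference 4.08, limma adjusted p = 0.0386), and against the flat cultures with no source label alone 1 was called. Fos, Hspa1b, Hspa1a and Jun, at log2 differences of 2.53, 2.33, 2.22 and 1.54, were lost with averaging (limma adjusted p = 0.151, 0.105, 0.103 and 0.141). Hspa1a and Hspa1b may share reads, so their calls may not be separate. Egr1, the most abundant, was not called (log2 difference 0.90, limma adjusted p = 0.140). Fosb was at 2.76, 19.6, 284 and 12.4 RPM in flat cultures 1 to 4 and between 223 and 572 RPM in reaggregates, overlapping through flat culture 3 (limma adjusted p = 0.00729; 0.0839 averaged). Reaggregates were dissociated with enzymes before RNA extraction, and this step and the culture cannot be told apart. Their part in the differences of the members was not tested.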
